A study of Mus musculus with 4 samples.

Results

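The Hox cluster genes were examined in a forebrain tissue, the hippocampus of wild-type mice. Members were the probe sets that the array's probe table pairs with a single gene symbol made of Hox, a cluster letter from a to d and a number. This gave 48 of 45101 probe sets on the array, for 33 of the 39 Hox genes in the RefSeq table. The others were not analysed here. RNA came from the whole hippocampus of the left side, 1 array for each of 4 samples, which the labels number 11, 13, 15 and 17 and the series' design calls biological replicates. All are wild type, with no treatment named, and their strain, age and sex were not stated in those labels. With a single group there was no comparison between conditions, and the question was how far these genes stay near the background of the array, and which do not. Each deposited value is a log2 intensity from RMA (robust multi-array average, which corrects background, normalizes arrays to each other and summarises the probes of a set), so a difference of 1 is a doubling of signal.

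Hox genes encode homeodomain transcription factors that give cells of the body axis their position. They lie in chromosomal clusters named A to D, and their order within a cluster follows the order of their domains in the embryo. In the nervous system their domains lie in the hindbrain and spinal cord, where they set the identity of rhombomeres and motor neuron pools. The forebrain, which gives rise to the hippocampus, develops without them. Polycomb proteins keep the clusters silent there, trithorax proteins and retinoic acid promote their activity, and TALE homeodomain proteins of the Pbx, Meis and Pknox families bind DNA together with Hox proteins.

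Background was read from genes with no expected role in brain, since the deposited table holds no detection calls. The main limit, 6.72, was set at the 95th percentile over 53 measured genes of testis, liver, skin, gut and other organs, of 58 listed. It rests on a few of them: Lct, Krt10 and Lor stood at 7.84, 7.44 and 7.10, beside a median of 3.55, limma called all 3 above the limit, and without them it would be 6.12. A gene under 6.72 can therefore still carry signal. A stricter limit for calling a gene background was 4.70, the 95th percentile of 39 olfactory receptor genes. It is the lower cut, so a gene exceeds it more easily: 64.7% of all genes had a mean over it, beside 40.8% for 6.72. Each gene was represented by its probe set with the highest mean. Probe sets differ in affinity, so a higher or lower signal of one gene than of another is no order of transcript amounts, and a level under a limit does not show that a transcript was absent. In tissue RNA, fewer cells of a type and less RNA in each cell cannot be told apart.

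No Hox gene rose above the main limit in any sample. The mean was above 6.72 in 0 of 48 Hox probe sets, beside 25.6% of the 45037 probe sets on the array that are no controls, and in 0 of 33 Hox genes, beside 40.8% of 18194 genes. The highest single value among all 192 Hox values was 5.97, for Hoxa7 in sample 13, and the lowest was 2.27, for Hoxd10 in sample 17. No Hox probe set was above the limit in every sample, beside 24.1% of all probe sets. In a limma fit across all probe sets, one-sided against the limit, 0 of 48 were called above it at an adjusted p of 0.05, beside 23.6% of all probe sets, and 0 had an unadjusted p under 0.05. In the opposite direction, a test added after the values had been seen, 48 of 48 were called below it, beside 73.0% of all probe sets, with 2.93e-06 as the largest adjusted p. These p-values measure the spread between the 4 arrays and leave out the spread of the background genes and of probe affinity. With the limit at the 90th percentile of the background genes, 6.14, or taken without Lct, Krt10 and Lor, 6.12, no Hox gene was above it either, though Hoxa7 was then within 0.5 of it.

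**Figure D1:**
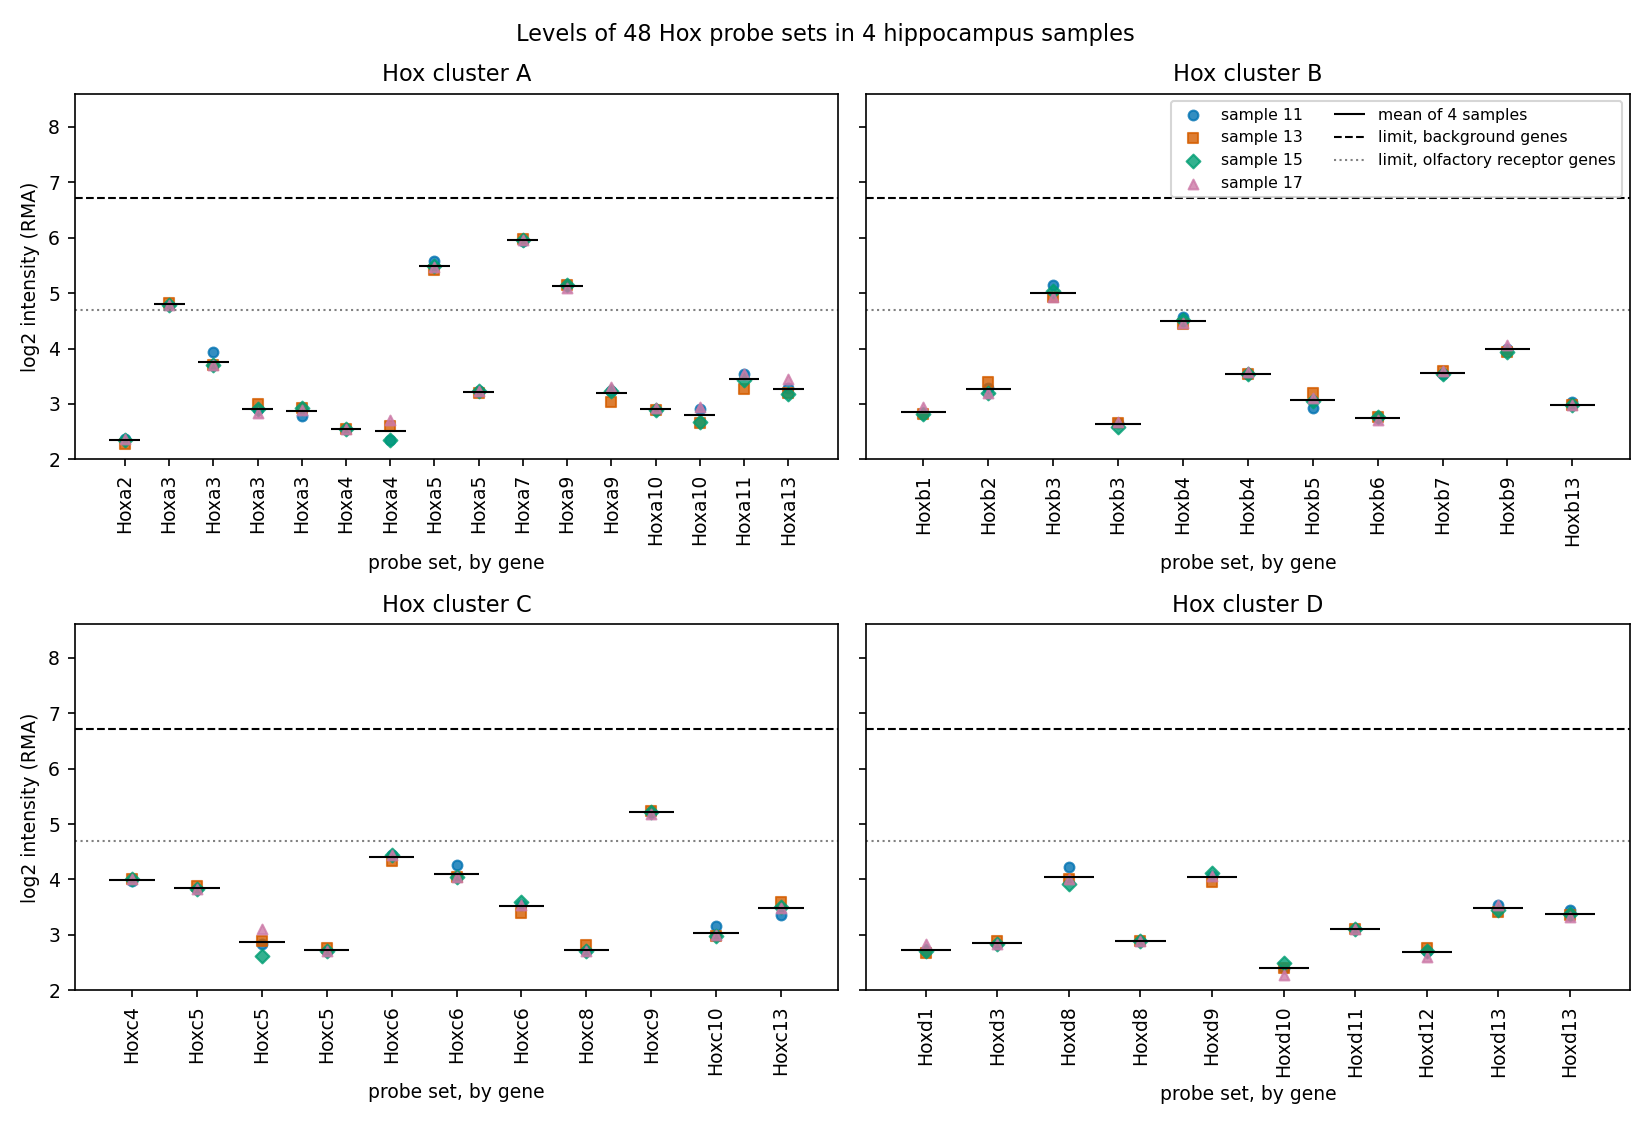
Levels of the 48 Hox probe sets (log2 intensity) in samples 11, 13, 15 and 17, 1 panel for each cluster, with a bar at the mean of 4 samples. The dashed line at 6.72 is the limit from background genes and the dotted line at 4.70 the limit from olfactory receptor genes. All points lie under the dashed line, and 6 probe sets lie above the dotted one.

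The bulk of the Hox genes lay where olfactory receptor genes lie. The median over the 48 Hox probe sets was 3.25, beside 4.70 over all probe sets, and 20.5% of all probe sets had a lower mean than this Hox median. By genes, the median was 3.45 for the Hox genes, 3.43 for the olfactory receptor genes and 3.55 for the genes of other organs, beside 5.99 for all genes. The quartiles of the Hox probe sets were 2.85 and 3.99. The mean was above the stricter limit of 4.70 in 6 of 48 Hox probe sets, beside 49.9% of all probe sets, and in 6 of 33 Hox genes, beside 64.7% of all genes. Against this limit, limma called 42 of 48 Hox probe sets below, beside 47.8% of all probe sets, and 6 of 48 above, beside 47.6%. The share of genes over 4.70 was thus 18.2% for Hox genes, 24.5% for the genes of other organs, and 5.13% for the olfactory receptor genes, a share that the 95th percentile sets.

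**Figure D2:**
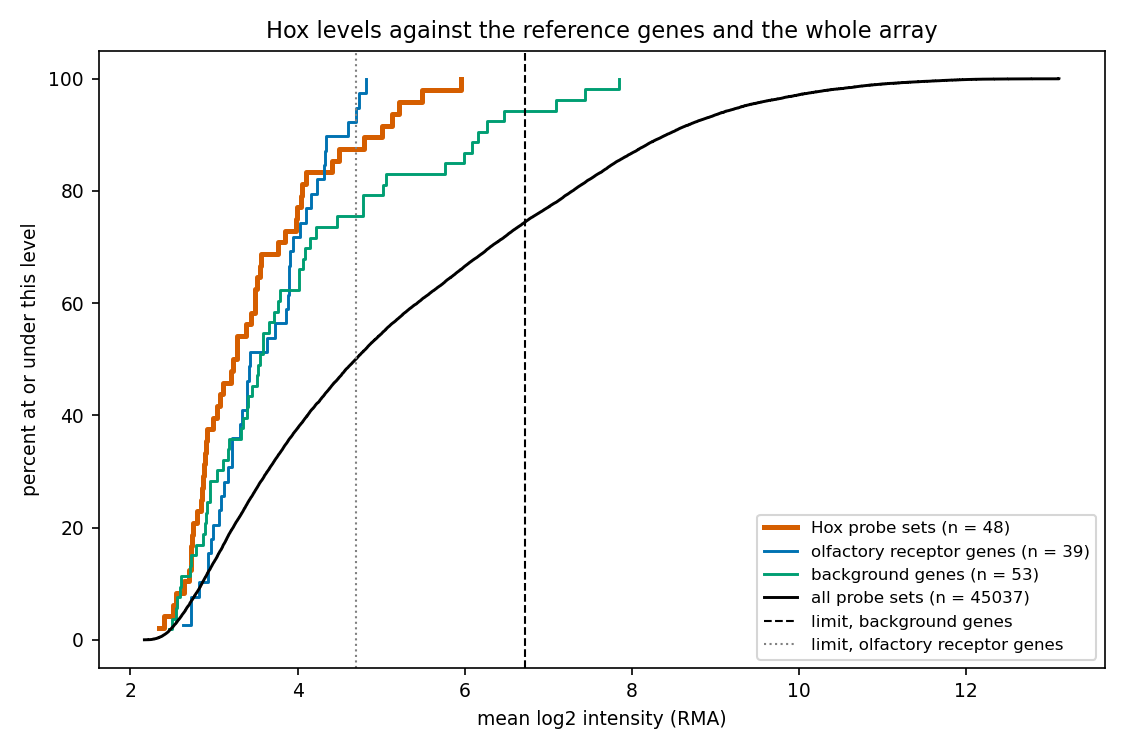
Cumulative distributions of mean log2 intensity for the 48 Hox probe sets, 39 olfactory receptor genes, 53 background genes and all 45037 probe sets; the vertical lines are the limits of 6.72 (dashed) and 4.70 (dotted). Each olfactory receptor and background gene is shown at its highest probe set, whereas the Hox curve holds every probe set (median 3.25, beside 3.45 by gene). This Hox curve rises beside that of the olfactory receptor genes and reaches its top at 5.96, left of the curve of the whole array.

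The exceptions at the stricter limit were 6 probe sets, each of a different gene: Hoxa3, Hoxa5, Hoxa7 and Hoxa9 of cluster A, Hoxb3 of cluster B and Hoxc9 of cluster C. Of these, Hoxa3, Hoxa5 and Hoxa9 were singled out after their values had been seen. All 6 were above 4.70 in every sample, and all lay under 6.72 in every sample.

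Hoxa7, a gene of trunk patterning, had the Hox signal nearest to the main limit, at 5.94 in sample 11, 5.97 in sample 13 and 5.95 in samples 15 and 17. Its mean of 5.96 ± 0.012 (SD, n = 4) was 0.76 under the main limit, and limma gave adjusted p = 4.97e-07 above the stricter limit and 1.39e-06 below the main one. The 4 samples were nearly the same, and Hoxa7 was read by a single probe set. Hoxc9, which sets the thoracic motor columns of the spinal cord, stood at 5.22 in samples 11 and 15, 5.23 in sample 13 and 5.19 in sample 17. Its mean was 5.21 ± 0.020, with adjusted p = 1.21e-05 above the stricter limit by limma, again from a single probe set. These were the exceptions for which the array held no other probe set to set against the first.

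The other 4 exceptions each had a second reading under the stricter limit. Hoxa5, which acts in the phrenic motor column and the lung, read 5.58, 5.42, 5.50 and 5.47 in samples 11, 13, 15 and 17 by one probe set (5.49 ± 0.067). Its other probe set had a mean of 3.22 ± 0.018. The name of the upper set ends in _x_at, which in Affymetrix naming marks probes that can also match other sequences. Hoxa9, known from blood stem cells and posterior patterning, stood at 5.14 in samples 11, 13 and 15 and 5.09 in sample 17 by its upper probe set (5.13 ± 0.027), and at 3.20 ± 0.11 by the lower. Hoxb3, a hindbrain gene, stood at 5.15 in sample 11, 5.03 in sample 15 and 4.92 in samples 13 and 17 (5.01 ± 0.11), while its lower probe set had a mean of 2.64 ± 0.041. The gap of 2.37 between the readings of Hoxb3 was the widest of any Hox gene. Hoxa3, needed for the thymus, parathyroid and caudal hindbrain, stood at 4.79 in samples 11, 15 and 17 and 4.82 in sample 13 by the upper of 4 probe sets (4.80 ± 0.018), and the others had means of 3.77, 2.91 and 2.88. Its margin over the stricter limit was only 0.099, and it lay under the highest olfactory receptor gene, Olfr15, at 4.82. With each gene taken at the median of its probe sets, a choice made after the values had been seen, Hoxa7 and Hoxc9 were the 2 Hox genes over 4.70.

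**Figure D3:**
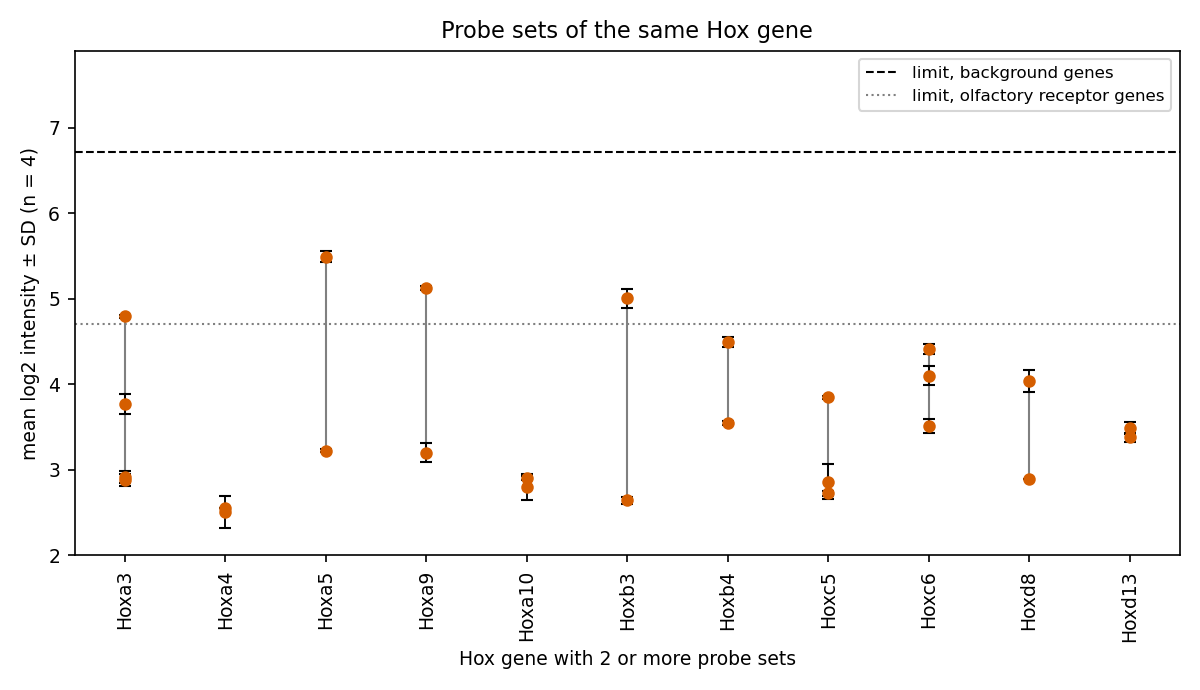
Mean log2 intensity ± SD (n = 4) of each probe set for the 11 Hox genes with more than 1, joined by a line for each gene. For Hoxa3, Hoxa5, Hoxa9 and Hoxb3 the upper probe set lies over the dotted limit of 4.70 and the others under it, and none reaches the dashed limit of 6.72.

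Disagreement between probe sets was not confined to the exceptions. Of 11 genes with several probe sets, 6 had means at least 1 apart on the log2 scale, and the gap ran from 0.044 for Hoxa4 to 2.37 for Hoxb3. Hoxc5, a gene of the cervical and brachial cord, had probe sets at 3.85, 2.86 and 2.73. Hoxd8 had them at 4.04 and 2.90, and Hoxb4, which is active in the caudal hindbrain and in blood stem cells, at 4.49 and 3.55. Hoxa10 (2.91 and 2.79) and Hoxd13 (3.49 and 3.38) each differed by 0.11. For the widest gaps the difference between probe sets of a gene was many times the SD between samples, whose median over the Hox probe sets was 0.059.

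The sequence upstream of the start site is shown for Hoxa7 and Hoxa9, whose means lay over the lower cut of 4.70. It is also shown for Hoxa2 and Hoxd10, whose means lay under 4.70, so that sequences from either side can be read. Each is the 250 bases before the start in the RefSeq promoter table (build GRCm38.p6), 5′ to 3′, with every CpG in capitals.
Hoxa7, chr6:52218574-52218823, minus strand: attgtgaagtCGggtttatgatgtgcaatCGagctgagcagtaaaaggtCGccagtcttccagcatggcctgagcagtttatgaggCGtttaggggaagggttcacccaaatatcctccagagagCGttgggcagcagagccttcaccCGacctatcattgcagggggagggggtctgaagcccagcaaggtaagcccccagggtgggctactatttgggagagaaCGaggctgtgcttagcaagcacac
Hoxa9, chr6:52227371-52227620, minus strand: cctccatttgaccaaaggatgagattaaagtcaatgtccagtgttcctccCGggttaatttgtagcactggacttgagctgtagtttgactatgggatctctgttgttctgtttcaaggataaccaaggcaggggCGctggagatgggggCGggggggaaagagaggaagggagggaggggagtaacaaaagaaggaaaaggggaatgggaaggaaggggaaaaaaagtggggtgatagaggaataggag
Hoxa2, chr6:52164832-52165081, minus strand: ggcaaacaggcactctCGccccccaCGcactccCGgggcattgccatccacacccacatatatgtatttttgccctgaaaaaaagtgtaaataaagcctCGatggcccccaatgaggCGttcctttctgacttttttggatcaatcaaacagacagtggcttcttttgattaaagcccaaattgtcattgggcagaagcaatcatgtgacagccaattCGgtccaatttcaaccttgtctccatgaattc
Hoxd10, chr2:74691641-74691890, plus strand: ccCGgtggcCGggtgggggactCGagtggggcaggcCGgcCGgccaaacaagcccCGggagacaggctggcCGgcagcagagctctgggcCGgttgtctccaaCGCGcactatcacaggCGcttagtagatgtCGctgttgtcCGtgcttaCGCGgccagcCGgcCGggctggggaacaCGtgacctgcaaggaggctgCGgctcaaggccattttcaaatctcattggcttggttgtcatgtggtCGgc
These windows held 7 CpG in Hoxa7, 3 in Hoxa9, 6 in Hoxa2 and 20 in Hoxd10. Of the other exceptions with an entry, Hoxa3 had 18 and Hoxa5 had 28, and the promoters of Hox genes under the stricter limit had 2 to 35. In all, 21 promoters of 19 measured Hox genes were in the table, with a median of 13 CpG in 250 bases, beside 6 over its 32851 promoters, and a median GC content of 59.2% beside 52.4%. The letters TGATNNAT, a form of site that Hox and Pbx proteins bind together, were found on either strand in 3 of 21, or 14.3%, beside 7.68% of all promoters. AGGTCA, which nuclear receptors such as those for retinoic acid bind as repeats, was on either strand in 5 of 21, beside 4607 of the 32851. These matches are a description of the letters, not of sites in use.

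By position along the body axis, genes over the stricter limit at their highest probe set were found in each section of the clusters. At the median of their probe sets, Hoxa3 (3.34) and Hoxb3 (3.82) were under it, and no anterior gene was over it. Anterior genes, of paralog groups 1 to 4, had a median of 3.06 over 10 genes and 2 over the stricter limit. Among them Hoxa2, which patterns the hindbrain and the arch that forms the stapes, read 2.38, 2.28, 2.35 and 2.36 in samples 11, 13, 15 and 17 (2.34 ± 0.043). Hoxb1, which specifies facial motor neurons, had a mean of 2.86 ± 0.059, Hoxb2 of 3.27 ± 0.089 and Hoxd1 of 2.73 ± 0.073. Hoxa4 read 2.55 in all 4 samples, Hoxc4 had a mean of 3.99 ± 0.020 and Hoxd3 of 2.84 ± 0.034.

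Central genes, of groups 5 to 8, had a median of 3.85 over 9 genes, again with 2 over the stricter limit. Hoxc6, of the brachial cord, lay at 4.41 ± 0.057, and Hoxc8, of the brachial and thoracic cord, at 2.73 ± 0.056. Hoxc8 stood at 2.70 in samples 11, 15 and 17 and 2.81 in sample 13. Hoxb5, Hoxb6 and Hoxb7 had means of 3.07 ± 0.11, 2.75 ± 0.028 and 3.57 ± 0.035. Posterior genes, of groups 9 to 13, had a median of 3.36 over 14 genes and 2 over the stricter limit. Hoxd10, which specifies lumbar motor neurons, stood at 2.41 in samples 11 and 13, 2.50 in sample 15 and 2.27 in sample 17. Hoxc10, its lumbar partner, had a mean of 3.04 ± 0.087, Hoxd9 of 4.05 ± 0.071 and Hoxb9 of 3.99 ± 0.054. Hoxa11 and Hoxd11 of the forearm had means of 3.45 ± 0.13 and 3.11 with the same value in all 4 samples. The terminal genes Hoxa13 (3.28 ± 0.12), Hoxb13 (2.99 ± 0.025), Hoxc13 (3.49 ± 0.094) and Hoxd13 (3.49 ± 0.067) and also Hoxd12 (2.70 ± 0.070) were all under 4.70.

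By cluster, 4 of 9 genes of cluster A were over the stricter limit, 1 of 9 of cluster B, 1 of 7 of cluster C and 0 of 8 of cluster D. The medians by gene were 3.45, 3.27, 3.85 and 2.98 in that order. Each gene counts over the limit by its highest probe set, and cluster A had 16 probe sets, beside 11, 11 and 10 for B, C and D. Hoxa3, Hoxa5, Hoxa9 and Hoxb3 each had another probe set under 4.70. With the median over probe sets, only Hoxa7 and Hoxc9 were over it. These counts are a description, since probe sets differ in affinity and the genes are too few to call a cluster apart.

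Probe sets with several symbols gave the same picture. The 2 that match Hoxd4 and Hoxd3 together had means of 3.90 ± 0.048 and 3.08 ± 0.12, and the 1 that matches Hoxb8 and Hoxb7 had a mean of 2.88 ± 0.032. The noncoding genes that lie among the Hox genes were low as well. Their levels were 2.91 for Hoxa11os, 4.15 for Hoxb5os, 2.72 for Hoxd3os1, 3.99 for Gm15050 and 2.51 for Gm38462, and limma called all 5 below the main limit. All of these were under the stricter limit too.

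Genes beside the clusters lay on both sides of the main limit. Among the 4 nearest measured genes on each side of each cluster, 17 of 32 had a mean above 6.72, beside 40.8% of all genes, and limma called 16 above and 15 below. Next to cluster A, Skap2, a signalling adaptor, stood at 7.01 ± 0.12 on the side of Hoxa2, while on the side of Hoxa13 the homeobox gene Evx1 (4.07 ± 0.14) and its antisense Evx1os (2.79 ± 0.12) came first and Hibadh, an enzyme of valine breakdown, stood at 8.57 ± 0.087. Cluster C lay between Calcoco1, a transcriptional coactivator, at 7.66 ± 0.17 and Smug1, a DNA repair glycosylase, at 6.82 ± 0.12, the latter not called either way (adjusted p = 0.258 above by limma). Cluster D lay between the homeobox gene Evx2, at 3.71 in all 4 samples, and Mtx2, a mitochondrial outer membrane protein, at 7.38 ± 0.16. The nearest neighbours of cluster B were both under the main limit, Ttll6 at 5.18 ± 0.18 and the T cell adaptor Skap1 at 3.92 ± 0.15, and the next measured gene beyond Skap1, Snx11, stood at 7.15 ± 0.017.

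**Figure D4:**
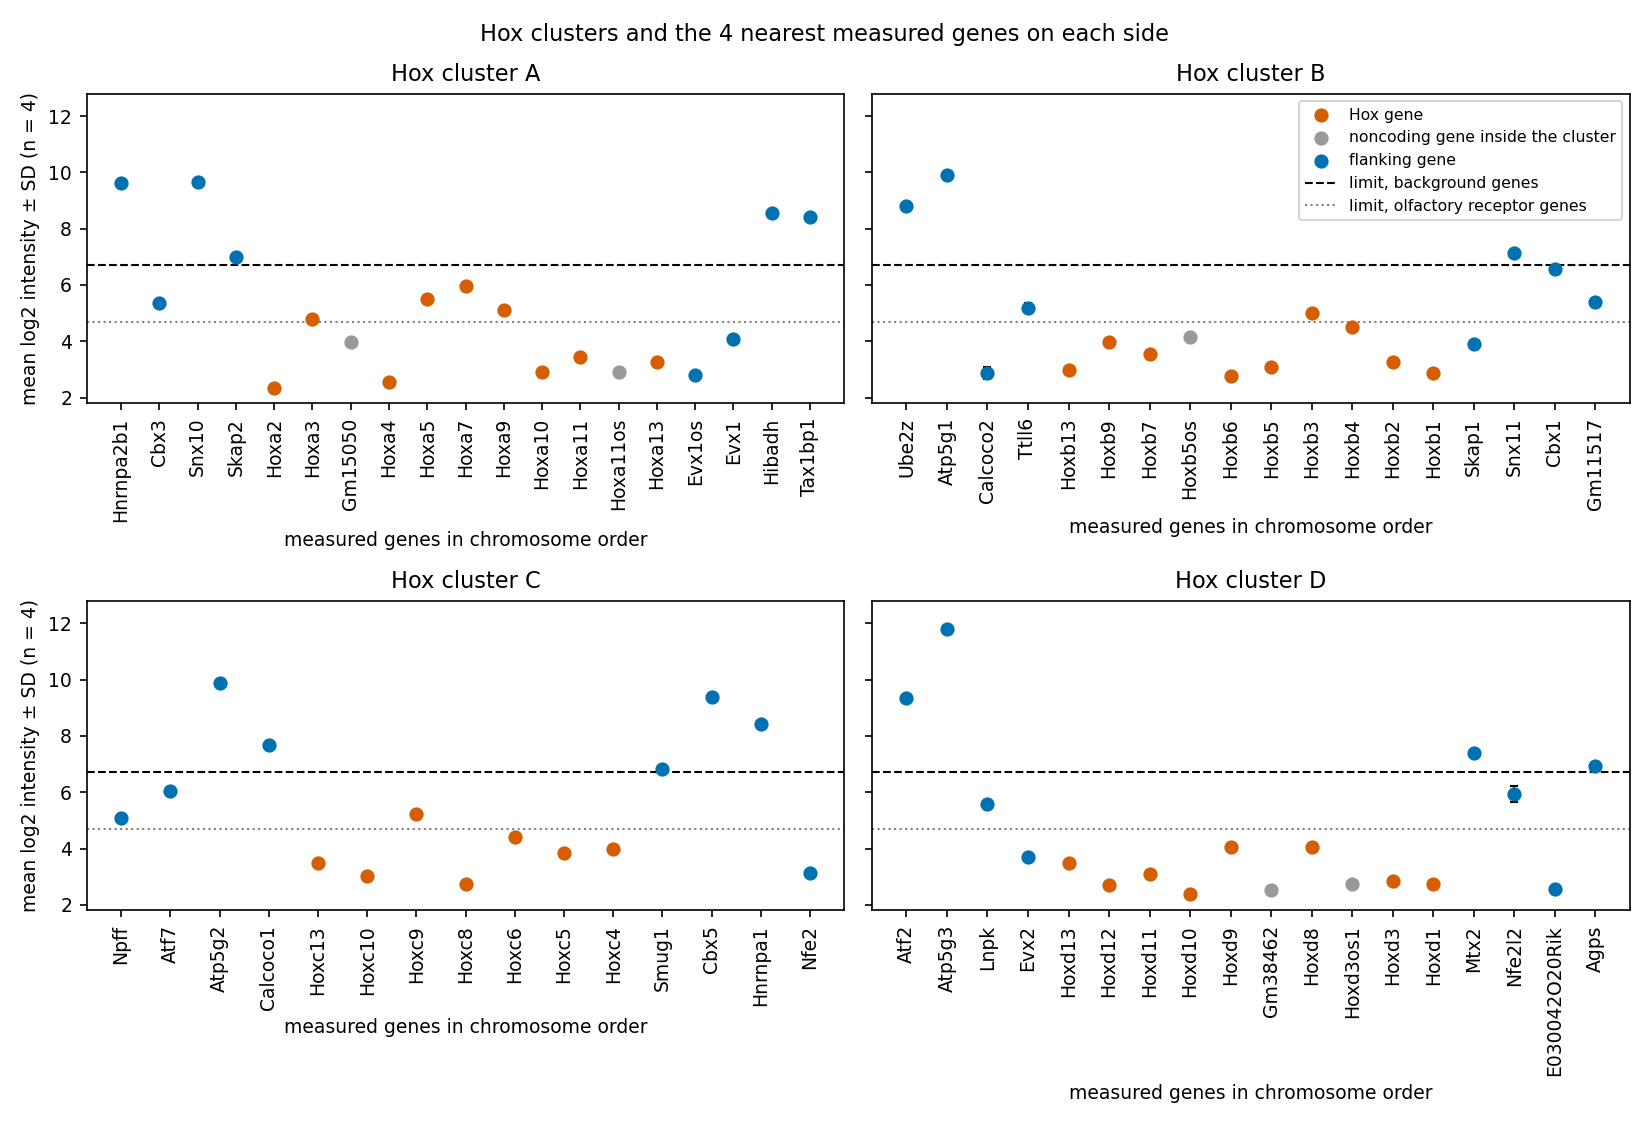
Mean log2 intensity ± SD (n = 4) of the measured genes in chromosome order across each Hox cluster and its 4 nearest measured genes on both sides, with spacing not to scale. Hox genes (orange) and noncoding genes within the clusters (grey) all lie under the dashed limit of 6.72, and 17 of 32 flanking genes (blue) lie above it.

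Genes listed for midbrain, hindbrain and spinal cord, and the ParaHox genes, also lay mostly under the main limit, as did most of the array. Over the array, limma called 73.0% of probe sets below this limit, and 40.8% of genes had a mean above it. Of 18 measured midbrain and hindbrain patterning genes, 0 were called above the main limit by limma (0 at an unadjusted p under 0.05) and 18 below, with a median of 3.39. They include the isthmus genes En1 (2.70 ± 0.16) and En2 (3.34 ± 0.046) and the paired box genes Pax5 (3.88 ± 0.11) and Pax8 (3.34 ± 0.11). Of 21 spinal cord transcription factors, 1 was called above and 20 below, while 8 had a mean over the stricter limit and 6 were called above it, beside 64.7% of all genes with a mean over it. The one above the main limit was Foxp1, at 8.49 ± 0.081, a limb motor column factor that forebrain neurons also use. Mnx1 (3.15 ± 0.049), Isl1 (3.42 ± 0.17), Isl2 (4.78 ± 0.33) and Lhx3 (4.82 ± 0.041) of motor neurons were below the main limit. Besides Foxp1, those called above the stricter limit were Lhx3, Olig2 (6.47 ± 0.23), Gata2 (6.25 ± 0.085), Prrxl1 (4.94 ± 0.059) and Onecut2 (4.90 ± 0.046). All 6 ParaHox genes, the sister cluster of the Hox genes, were called below the main limit and 1, Gsx1 (4.90), above the stricter one, among them Cdx1 (3.36 ± 0.23), Cdx2 (4.27 ± 0.24), Cdx4 (2.88 ± 0.033) and Pdx1 (4.18 ± 0.029). Markers of hindbrain and spinal neurons were called below in 12 of 13 cases and above in 0 (0 at an unadjusted p under 0.05). Of these markers 3 were called above the stricter limit: Dbh, Slc6a2 (5.82 ± 0.061) and Slc17a6 (5.54 ± 0.43). Tph2 of serotonin neurons had a mean of 2.67 ± 0.11 and the serotonin transporter Slc6a4 of 4.34 ± 0.13, and Th, of catecholamine neurons, of 4.61 ± 0.15. Dbh, which makes noradrenaline, had a mean of 6.86 ± 0.16, over the limit but not called (adjusted p = 0.232 by limma). The name of its probe set also ends in _x_at, so its probes can match other sequences.

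General neuronal genes and most hippocampal neuron markers were in contrast above both limits, while forebrain patterning genes were mixed. All 8 general neuronal genes and 10 of 12 hippocampal neuron markers were called above 6.72, beside 40.8% of all genes by their mean. Snap25 stood at 11.44 ± 0.027, Camk2a at 11.78 ± 0.040 and Wfs1 at 8.88 ± 0.19. Prox1 (5.76 ± 0.073) and Grik4 (6.40 ± 0.070) were the 2 called below. Of 23 forebrain patterning genes, 10 were called above and 13 below, and 20 were called above the stricter limit, beside 40.8% and 64.7% of all genes with a mean over these limits. Lhx2, a selector of hippocampal fate, stood at 8.22 ± 0.020 and Emx1 and Emx2 at 6.31 ± 0.057 and 5.77 ± 0.085, while Otx1 was at 3.44 ± 0.055. Known forebrain factors thus fell on both sides of the main limit. Markers of other cell types that the tissue could hold gave mixed levels. Limma called 0 of 11 leukocyte and 0 of 5 erythroid markers above 6.72, 0 of 9 of choroid plexus, 2 of 10 of meninges, 3 of 8 of mural cells and 4 of 9 of endothelium (0, 0 and 0 for the first 3 at an unadjusted p under 0.05). Ttr, the chief choroid plexus transcript, read 7.36, 9.84, 6.86 and 6.54 in samples 11, 13, 15 and 17, highest in sample 13. Of cerebellar markers 2 of 7 were called above 6.72, Calb1 and Neurod1, which hippocampal neurons also express, and 3 of 7 above 4.70. The part of these cells in the Hox levels was not tested.

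Genes whose products act on or with Hox genes are read beside the shares of all genes with a mean over the limits, 40.8% for 6.72 and 64.7% for 4.70. Of 10 listed TALE genes, 4 were called above the main limit, near the share of all genes, and 8 above the stricter one. The list includes Tgif1 and Tgif2, which lie outside the Pbx, Meis and Pknox families. Pbx2 stood at 8.17 ± 0.0085, Pknox2 at 7.74 ± 0.059, Meis2 at 7.48 ± 0.14 and Pknox1 at 7.04 ± 0.072. Pbx3 and Pbx4 had means of 5.65 ± 0.10 and 5.11 ± 0.070, and Meis1 (3.78 ± 0.055) and Tgif1 (3.62 ± 0.029) were under the stricter limit as well. Of 23 Polycomb genes, 17 were called above 6.72 and 23 above 4.70, beside 40.8% and 64.7% of all genes. Ezh1, the methyltransferase of non-dividing cells, stood at 8.02 ± 0.13, its core partners Eed at 7.14 ± 0.055 and Suz12 at 7.60 ± 0.047, the ubiquitin ligases Ring1 and Rnf2 at 7.75 ± 0.022 and 8.02 ± 0.12 and the reader Cbx6 at 10.30 ± 0.072. Ezh2, the methyltransferase of dividing cells, was below 6.72 at 5.01 ± 0.12, as were Cbx2 (5.38 ± 0.15) and Cbx8 (4.97 ± 0.0042). Phf19 (5.78 ± 0.15), Pcgf1 (6.38 ± 0.21) and Pcgf2 (5.25 ± 0.087) were below it too.

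In the list of trithorax genes and demethylases of the Polycomb mark, 12 of 13 were called above the main limit, beside 40.8% of all genes. The list also holds Ctcf (8.47 ± 0.13). Kmt2a, the methyltransferase that maintains Hox expression, stood at 9.09 ± 0.059, its partner Men1 at 7.59 ± 0.093 and the demethylase Kdm6b at 7.31 ± 0.033, and Kdm6a was below at 6.46 ± 0.10. Of 17 retinoic acid genes, 12 were called above 4.70, beside 64.7% of all genes, and 5 above 6.72, beside 40.8%: the synthesis enzymes Aldh1a1 (8.75 ± 0.046) and Rdh10 (7.09 ± 0.074), Dhrs3, which reverses the Rdh10 step (7.13 ± 0.17), the receptor Rxrb (8.37 ± 0.082) and the retinol carrier Rbp4 (6.83 ± 0.062). The receptors Rara, Rarb and Rarg had means of 4.14 ± 0.044, 5.50 and 6.66 ± 0.026, Rarb with the same value in all 4 samples.

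**Figure D5:**
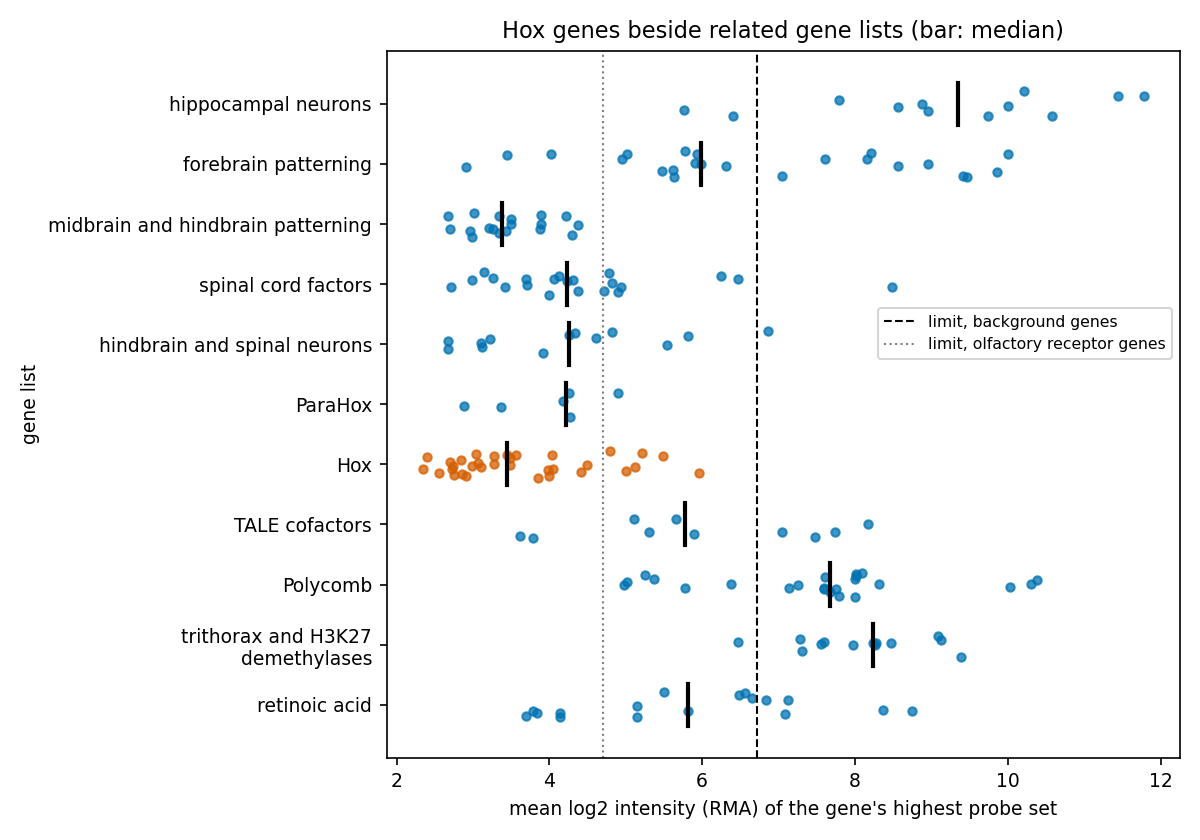
Mean log2 intensity of each gene's highest probe set for the Hox genes (orange) and 10 related gene lists (blue), with a bar at each median, the dashed limit at 6.72 and the dotted limit at 4.70; vertical scatter within a list only separates points. The 33 Hox genes have a median of 3.45 and all lie under 6.72, beside medians of 7.67 for Polycomb genes and 8.23 for trithorax genes and demethylases.

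Across samples the Hox signals differed little, which at background level does not show that expression was stable. The median level of the 48 probe sets was 3.26 in samples 11 and 17, 3.20 in sample 13 and 3.22 in sample 15. Their mean deviation from their own means was 0.017, -0.012, -0.018 and 0.013 in samples 11, 13, 15 and 17. The median SD of the Hox probe sets was 0.059, beside 0.087 over all probe sets, and the largest was 0.20, for a probe set of Hoxc5 that stood at 2.84, 2.90, 2.62 and 3.10 in the same order. The same 6 probe sets exceeded 4.70 in each sample. Over these arrays the 3' minus 5' difference of the Gapdh control went from 0.62 in samples 11 and 13 to 2.64 in sample 15 and 3.79 in sample 17, and that of beta-actin from 1.10 in sample 11 to 2.33 in sample 17. Whether RNA quality had a part in the Hox levels was not tested.

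Many values of the table were shared between samples. In 37 of 48 Hox probe sets, or 77.1%, at least 2 samples held exactly the same value, beside 53.3% of all probe sets and 61.7% of those under the main limit. In 13 the value was shared by 3 samples, and in 3, for Hoxa4, Hoxd8 and Hoxd11, by all 4. What produced the shared values was not tested, and the SDs and p-values above rest on the values as deposited.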

How the data were processed

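Total RNA was labelled with biotin and measured on 1 Affymetrix-type array for each of 4 samples. The deposited values are log2 intensities that the submitters' processing notes credit to RMA; its version is not given in the sources used here. A probe table gave 34958 probe sets 1 symbol, 932 several and 9211 none, 64 of the total being controls. Symbols of the other genes were brought up to date through RefSeq identifiers (GRCm38.p6), which also gave gene order. Limits were 95th percentiles of mean levels, as described above. limma (lmFit on the value minus the limit, intercept only, then a robust eBayes with a mean trend) gave one-sided p-values, adjusted by Benjamini-Hochberg over 45037 probe sets at 0.05, and was checked on simulated data. For 1464 probe sets with the same value in all 4 samples, 3 of them Hox, limma offset the variance from 0, so their p-values rest on the spread of other probe sets. The number of arrays limits precision.

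The members and lists were chosen with earlier results of these data known. The rule named Hox genes above or within 0.5 of the limit, of which there were none at 6.72. At 6.14 or 6.12 the rule would name Hoxa7. It also named Hox genes with probe sets on both sides of the limit (none), and the highest and lowest of each cluster. For each list it named the first 4 measured members and every member on the other side of the limit from most of the list. Not every gene that the rule gives is named here, and other genes named were chosen after their values were seen. Versions were limma 3.58.1 under R 4.3.3, and pandas 2.3.3 and matplotlib 3.10.9 under Python 3.11.15.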

Additional observations from a re-analysis of the deposited data

Results flagged for a closer look

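In 13 of 33 Hox genes the highest or lowest sample stood far from the others for the gene's range, by Dixon's 95% critical value. For 4 values without ties, chance passes it in about 1 in 20 groups. In 8 of the 13, the other 3 samples held exactly the same value, so that any gap passes. In the rest, the other 3 samples held 2 distinct values, so the rate of 1 in 20 applies to none of the 13. Hoxa4 and Hoxd11, with the same value in all 4 samples, could not be flagged. The largest gap was 0.16, and the share of flagged genes over the array was not counted. The sample apart was 13 or 17 in 5 genes each, 11 in 3 and 15 in 0.

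Sample 17 was highest for Hoxa10 (2.94, the others up to 2.90) and Hoxb1 (2.95 against 2.83) and lowest for Hoxa9 (5.09 against 5.14), Hoxb6 (2.71 against at least 2.76) and Hoxc9 (5.19 against at least 5.22). Sample 13 was highest for Hoxa3 (4.82 against 4.79), Hoxc5 (3.88 against 3.84), Hoxc8 (2.81 against 2.70) and Hoxd3 (2.90 against 2.83), and lowest for Hoxc6 (4.32 against at least 4.43). Sample 11 was highest for Hoxb13 (3.03 against 2.98) and Hoxc10 (3.17, the others up to 3.003) and lowest for Hoxc4 (3.96 against 4.005). None of these values crossed a limit.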

How the results depend on the processing

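The count of 0 Hox genes and probe sets above the limit, and of 48 below it, held with the limit at 6.14 to 7.84, with quantile normalization again, with centred columns, without each replicate (limits of 6.65 to 6.80), and, where they apply, with a median over probe sets, updated symbols, every sample required, eBayes without trend, an adjusted p of 0.01, fewer probe sets tested, and without the 3 highest background genes (6.12). The exception was the limit from olfactory receptor genes, 4.70, which put 6 genes and 6 probe sets above and limma's count at 6. That count was 6 without each replicate, 5 at the highest olfactory receptor gene (4.82) for genes, probe sets and limma alike, and 2 genes with a median over probe sets. The limit of 4.70 is the same percentile as the main one. It rests on 39 genes, the highest of which stood at 4.82. The median Hox level was 3.22 to 3.26 without each replicate. No paired analysis was possible because there is a single group.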
